A study of Mus musculus with 6 samples.

Results

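The expression of 10 genes that modulate or carry Wnt signaling was examined by RNA sequencing of mouse articular cartilage, comparing knockout (KO) with wildtype animals. The members were the secreted modulators Frzb, Sfrp1, Sfrp2, Sfrp4, Wif1 and Dkk3, the co-receptors Lrp5 and Lrp6, the effector Ctnnb1 and the feedback target Axin2. They were the rows of the deposited gene table whose gene name equals a listed member, and all 10 were found once among 34709 genes. The study held 6 libraries, 3 labelled KO and 3 labelled wildtype (WT). The mice were males by the study's methods and 18 months old by its results (the column names carry the same number). The methods name littermates for the wildtype and KO mice of the age-related osteoarthritis model, without mention of the sequenced samples. The KO line was listed on a C57BL/6J background. No treatment was listed for either group, and whether animals were pooled was not given in the sources used here.

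Wnt ligands are secreted proteins that bind Frizzled receptors together with the co-receptors LRP5 and LRP6. Binding stops the Axin complex from marking β-catenin, the product of Ctnnb1, for destruction, and β-catenin then enters the nucleus and works with TCF/LEF factors to switch on targets such as Axin2, which feeds back on the pathway. Secreted frizzled-related proteins and WIF1 bind Wnt ligands outside the cell. In the joint the pathway is known for its part in bone formation, and too much or too little of it harms articular cartilage, where Frzb is a long-known antagonist.

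Sequences upstream of the transcription start were available for 5 members in the RefSeq windows (GRCm38.p6), and those of Frzb and Wif1, the highest secreted members with a window, and of the target Axin2 are shown, each over the 250 bases before the RefSeq start. RefSeq and the deposited table place the starts of Frzb and Wif1 differently, so that 229 bases of the Frzb window and 44 of the Wif1 window lie inside the gene as the table gives it, against 0 for Axin2. Both strands were searched for CTTTGA, the core that TCF/LEF factors are known to bind, and matches are in capitals.
Frzb (chr2:80447397-80447646, minus strand): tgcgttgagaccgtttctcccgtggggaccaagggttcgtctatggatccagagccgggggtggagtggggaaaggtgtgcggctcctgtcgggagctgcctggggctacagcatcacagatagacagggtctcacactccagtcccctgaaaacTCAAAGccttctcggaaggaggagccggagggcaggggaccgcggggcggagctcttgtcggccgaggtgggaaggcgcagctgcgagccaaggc
Wif1 (chr10:121033754-121034003, plus strand): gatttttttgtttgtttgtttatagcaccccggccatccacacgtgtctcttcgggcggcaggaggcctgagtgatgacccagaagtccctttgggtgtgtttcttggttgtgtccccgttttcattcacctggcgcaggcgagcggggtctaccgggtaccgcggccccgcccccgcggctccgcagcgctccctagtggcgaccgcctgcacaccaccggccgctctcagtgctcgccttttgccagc
Axin2 (chr11:108920099-108920348, plus strand): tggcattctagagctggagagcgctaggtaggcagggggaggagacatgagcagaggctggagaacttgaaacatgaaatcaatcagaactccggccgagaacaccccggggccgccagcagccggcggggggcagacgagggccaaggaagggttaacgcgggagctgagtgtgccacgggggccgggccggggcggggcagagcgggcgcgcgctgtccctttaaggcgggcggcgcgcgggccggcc
The single match, in Frzb, begins at position -95 from the RefSeq start, inside the gene span of the table, and is on the opposite strand. Of all 32851 windows of this length, 13.8% held a match. A match describes the letters only, and the windows of Wif1 and Axin2 held none. The windows were rich in G and C, at 64.4%, 62.8% and 69.2%.

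Total counts ranged from 52268311 to 63331135 per library. KO replicates 2 and 3 differed far less than the other pairs. Their noise ratio, the median squared difference between 2 libraries relative to Poisson sampling, was 5.77, against 23.7 to 85.4 for the other 14 pairs, and they were counted as 1 sample. All group means and tests therefore had 2 KO samples and 3 wildtype samples unless stated. The library labelled KO replicate 1 stood apart from KO replicates 2 and 3. A principal component analysis took all 6 libraries, with KO replicates 2 and 3 entered separately, which gives them more weight. On its first component (45.9% of the variance) KO replicate 1 lay at -24.6, within the wildtype range of -26.2 to -23.9. KO replicates 2 and 3 lay at 50.7 and 49.6. The members' differences are therefore given with and without KO replicate 1.

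The tissue label was checked against marker lists. FPKM (fragments per kilobase of transcript, scaled to library size) values summed over 16 chondrocyte genes were 3225, 928 and 923 across the KO libraries and 739, 1885 and 1256 across the wildtype libraries, here and throughout in the order of replicates 1, 2 and 3. Cytl1 alone took 63.8% to 85.5% of this sum. The chondrocyte genes Acan (13.2 to 22.8 FPKM) and Col2a1 (12.4 to 21.3 FPKM) were present in every library, while 3 of the 16 averaged under 0.5 FPKM, among them the cartilage matrix gene Matn1 at 0 to 0.151 FPKM. The neutrophil and erythroid lists were far higher. The sum of 10 neutrophil genes ranged from 26869 to 62202 FPKM and that of 9 erythroid genes from 24950 to 108568 FPKM. In a bulk sample, fewer cells of a type and less RNA per cell cannot be told apart.

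The 10 members spanned a wide range of levels. Averaged over the 6 libraries, Ctnnb1 had 70.2 FPKM and Wif1 39 FPKM, and the ranges of these leading members overlapped. Frzb (7.47 FPKM), Sfrp4 (5.97), Lrp5 (4.35), Lrp6 (3.35) and Dkk3 (2.36) followed, and each overlapped its neighbor in the order. Sfrp1 (0.45), Axin2 (0.383) and Sfrp2 (0.188) were lowest and again overlapped their neighbors. The only breaks without overlap lay between Wif1 and Frzb and between Dkk3 and Sfrp1. Wif1 made up 64.5% to 74.1% of the summed FPKM of the 6 secreted members in every library.

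**Figure D1:**
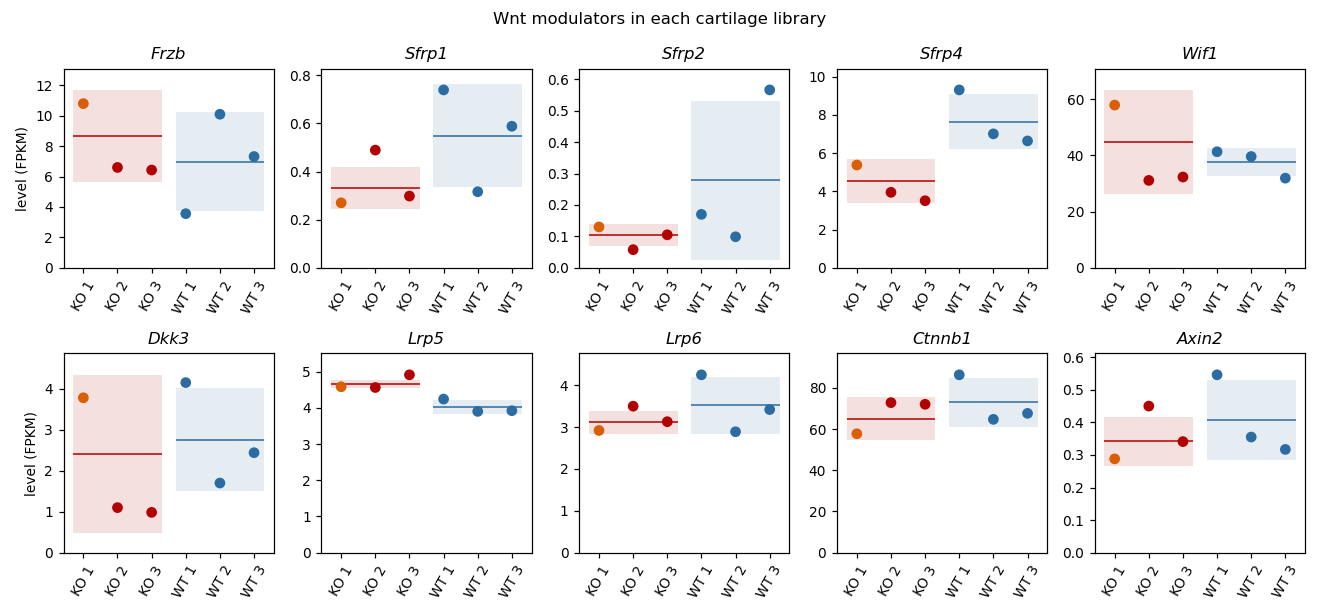
Level (FPKM, linear axis from 0) of each member in every library, with KO replicate 1 in orange, KO replicates 2 and 3 in red and wildtype in blue. Lines are group means and shaded bands 1 SD, with KO replicates 2 and 3 averaged into 1 sample (n = 2 KO and n = 3 wildtype), and only Sfrp4 and Lrp5 show groups without overlap.

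To ask which members differed in KO cartilage, they were read from edgeR's quasi-likelihood test over all 15376 genes tested, with Benjamini-Hochberg adjustment. None of the 10 members had an adjusted p-value under 0.05, and 0% of all genes passed (0 called, against 2106 at an unadjusted p-value under 0.05, or 13.7%). At that unadjusted level 1 of the 10 members, Sfrp4, was found, which is near the share in all genes (6.07% lower and 7.63% higher in KO). With the 6 libraries as labelled, 0 members passed against 3.7% of all genes, and with DESeq2 0 of the 9 members given an adjusted p-value passed against 5.77%. Without KO replicate 1, 0 members passed against 2.29%, and Sfrp4 and Dkk3 had an unadjusted p-value under 0.05, against 20.7% of all genes. The median log2 difference (KO minus wildtype) was -0.15 for the members and -0.02 for all genes. In KO 7 members were lower and 3 higher, against 52.5% of all genes lower.

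Groups did not overlap for 2 members, Sfrp4 and Lrp5, in log2 CPM (counts scaled to library size) of the 5 samples. This was so for 30% of all genes tested. With the 6 libraries as labelled the groups again did not overlap for these 2 members, and for 26.7% of all genes.

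Among the 6 secreted members, groups did not overlap for Sfrp4 only. This gene (chromosome 13, 19623104 to 19632994, GRCm38) encodes a secreted frizzled-related protein known for its role in bone. The KO libraries had 5.38, 3.95 and 3.51 FPKM, against 9.31, 7.01 and 6.64 FPKM for wildtype. Every KO library lay under every wildtype library, with the library labelled KO replicate 1 nearest to wildtype. The KO mean was 4.55 ± 1.17 FPKM (SD, n = 2), under the wildtype mean of 7.65 ± 1.44 FPKM (SD, n = 3).

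The log2 difference of Sfrp4 was -0.71 (SE 0.235, 95% interval -1.27 to -0.16; unadjusted p-value 0.0185, adjusted p-value 0.257 by edgeR). It thus failed the threshold over all genes. With the 6 libraries as labelled it was -0.82 (adjusted p-value 0.0747 by edgeR), and without KO replicate 1 it was -1.07 (0.0697), where the single KO sample left is assumed to vary like wildtype. Over 15 alternatives the log2 difference lay between -1.07 and -0.42, lower in KO each time, and adjusted p-values between 0.0697 and 0.566. Without KO replicates 2 and 3 the log2 difference was -0.42, with an unadjusted edgeR p-value of 0.0912, and without wildtype replicate 1 it was -0.58 (unadjusted 0.0564).

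Several marker lists were lower in the same libraries as Sfrp4. The sum of 6 adipocyte genes was 55.7, 23.6 and 23.5 FPKM in KO and 214, 77.3 and 143 FPKM in wildtype. That of 6 marrow stroma genes was 132, 108 and 110 FPKM in KO and 208, 160 and 196 FPKM in wildtype, and that of 10 B cell genes 91 to 144 FPKM in KO and 290 to 325 FPKM in wildtype. At an unadjusted p-value under 0.05, 6 of 6 adipocyte genes, 4 of 5 tested marrow stroma genes and 10 of 10 B cell genes were lower in KO. Of all genes tested 6.07% were lower at that level. Genes of 1 list are not independent of each other, and none in any marker list passed the adjusted threshold by edgeR. The erythroid list (24950 to 60714 FPKM in KO and 71704 to 108568 FPKM in wildtype) and the list of 7 endothelial genes (26.3 to 27.8 FPKM and 28.5 to 44.1 FPKM) separated the groups in the same direction. The neutrophil list separated them in the opposite direction, at 50577 to 62202 FPKM in KO and 26869 to 43605 FPKM in wildtype. In this list 6 of 10 genes were higher at an unadjusted p-value under 0.05 by edgeR, against 7.63% of all genes. The summed osteoblast and osteocyte list did not separate the groups, at 989 to 1050 FPKM in KO and 749 to 2070 FPKM in wildtype. Of its 10 genes 9 had lower values in KO (median log2 difference -0.43), none at an unadjusted p-value under 0.05 by edgeR. The part of these cells in the Sfrp4 values was not tested.

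Frzb, also known as Sfrp3, encodes a secreted frizzled-related protein first described in cartilage (chromosome 2, 80411970 to 80447625). Levels were 10.8, 6.6 and 6.43 FPKM in KO and 3.56, 10.1 and 7.32 FPKM in wildtype. The groups overlapped, with KO replicate 1 highest and wildtype replicate 1 lowest. KO differed from wildtype by 0.33 on the log2 scale (SE 0.444, 95% interval -0.72 to 1.37, adjusted p-value 0.839 by edgeR).

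The sign for Frzb rested on single libraries. The log2 difference was -0.15 without KO replicate 1, -0.001 without wildtype replicate 1 and 0.72 without wildtype replicate 2. The order of the 6 libraries by Frzb was that of the chondrocyte sum given above, from KO replicate 1 through wildtype replicates 2 and 3 and KO replicates 2 and 3 to wildtype replicate 1. Of the 16 chondrocyte genes only Cytl1, which took 63.8% to 85.5% of that sum, had exactly this order. The order of the sum is thus largely that of Cytl1. The part of cartilage content in the Frzb values was not tested.

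Wif1 encodes Wnt inhibitory factor 1, which binds Wnt ligands directly (chromosome 10, 121033960 to 121100650). It had 57.9, 31.1 and 32.3 FPKM in KO and 41.3, 39.6 and 31.9 FPKM in wildtype. The wildtype libraries lay within the KO range, between the library labelled KO replicate 1 and KO replicate 2. Its log2 difference was 0.29 (SE 0.275, 95% interval -0.36 to 0.94, adjusted p-value 0.745 by edgeR), and -0.28 without KO replicate 1.

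Dkk3, a divergent Dickkopf family member (chromosome 7, 112116017 to 112159057), varied most within KO among the 10 members. It had 3.78 FPKM in the library labelled KO replicate 1 and 1.1 and 0.984 FPKM in KO replicates 2 and 3, a 3.62-fold gap, and 4.15, 1.7 and 2.44 FPKM in wildtype. The log2 difference was -0.14 (SE 0.574, 95% interval -1.49 to 1.21, adjusted p-value 0.963 by edgeR). It was -1.43 without KO replicate 1 (adjusted p-value 0.181, within a range of 0.181 to 0.979 across 14 alternatives) and 0.55 without KO replicates 2 and 3. Several marker lists were also higher in KO replicate 1 than in KO replicates 2 and 3. The gap was 34.5-fold for skeletal muscle, 3.51-fold for tendon and ligament, 3.48-fold for chondrocytes and 2.6-fold for fibroblasts. Single genes weighed heavily in these sums. In KO, Cytl1 had 2759, 687 and 677 FPKM and the fibroblast gene Dcn 183, 43.2 and 43.4 FPKM. Col11a1 (5.67, 10.4 and 10.2 FPKM) and Pi16 (19.5, 24.6 and 24 FPKM) of the same lists went the other way. Of the 16 chondrocyte genes, 10 were highest in KO replicate 1. It was 2.29-fold to 2.42-fold for the superficial zone, adipocyte and erythroid lists. The other lists differed less, at 1.56-fold for B cells, 1.22-fold for neutrophils and 1.21-fold for marrow stroma. The osteoblast and osteocyte list was at 1.06-fold and the endothelial list at 1.0-fold. Genes of the osteoblast and osteocyte list went both ways in KO, with Dmp1 at 50.7, 23.5 and 22.5 FPKM and Col1a1 at 105, 317 and 312 FPKM. In wildtype, replicate 1 was highest in Dkk3 and lowest in the summed chondrocyte list, though only 3 of its 16 genes were lowest there over the 6 libraries. The part of these cells in the Dkk3 values was not tested.

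**Figure D2:**
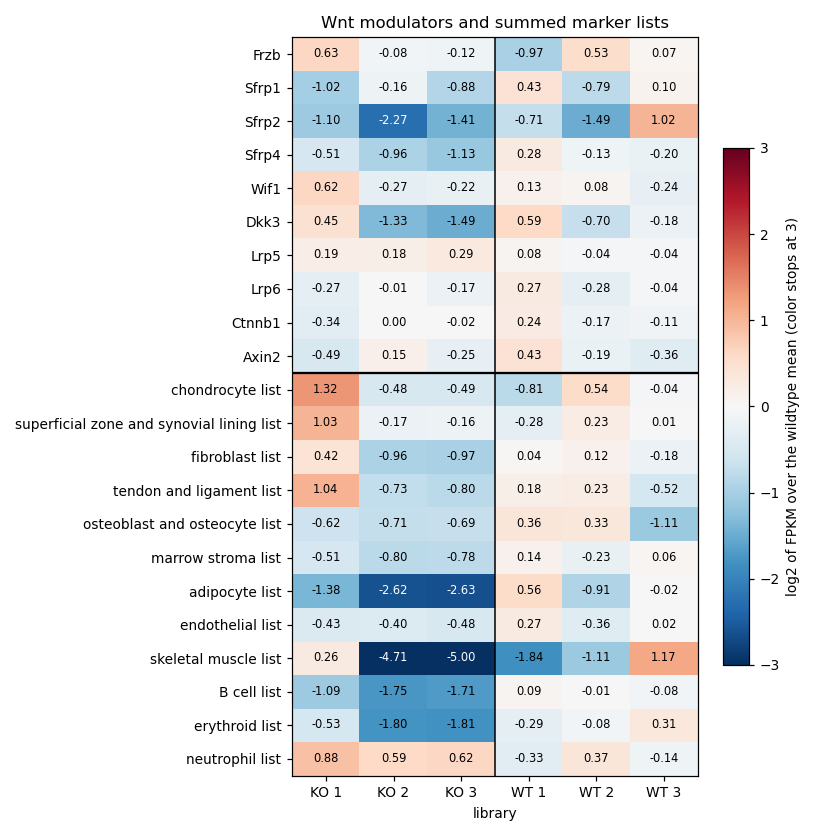
Level of each member (upper block) and summed FPKM of each marker list (lower block) in every library, as log2 of the value over the wildtype mean; numbers in cells are these values and color stops at 3. Frzb and Wif1 stand at 0.63 and 0.62 and the chondrocyte list at 1.32 in KO replicate 1. Sfrp4, Sfrp1, Sfrp2 and Lrp6 are negative in all KO libraries. So are the marrow stroma, adipocyte, B cell, erythroid, endothelial, and osteoblast and osteocyte lists.

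Sfrp1 and Sfrp2 were measured at low levels. Sfrp1 (chromosome 8, 23411502 to 23449632), a frizzled-related antagonist, had 0.27, 0.489 and 0.298 FPKM in KO and 0.739, 0.316 and 0.588 FPKM in wildtype, from 70 to 213 counts. KO replicate 2 lay above wildtype replicate 2, so the groups overlapped. The log2 difference was -0.69 (SE 0.406, 95% interval -1.65 to 0.27, adjusted p-value 0.54 by edgeR). It was -0.495 without KO replicate 1, -0.44 without wildtype replicate 1 and -0.947 without wildtype replicate 2.

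Sfrp2 (chromosome 3, 83766321 to 83774316), a close relative made by fibroblasts, had 17, 9 and 16 counts in KO and 25, 13 and 78 counts in wildtype, or 0.0577 to 0.566 FPKM. Only wildtype replicate 3 was clearly above the rest. For Sfrp2 the log2 difference was -1.36 (SE 0.806, 95% interval -3.26 to 0.54, adjusted p-value 0.541 by edgeR). This became -1.85 without KO replicate 1 and -0.33 without wildtype replicate 3. That library was also highest in the skeletal muscle list (257 FPKM, against 3.57 to 137 FPKM in the others) and lowest in the osteoblast and osteocyte list (749 FPKM). A part of other tissue in the Sfrp2 value was not tested.

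The co-receptors stayed within narrow ranges. Lrp5 (chromosome 19, 3584828 to 3686564), known for its strong effect on bone mass, had 4.58, 4.56 and 4.91 FPKM in KO and 4.24, 3.9 and 3.92 FPKM in wildtype. Every KO library lay above every wildtype library by a small margin. The KO mean was 4.66 ± 0.109 FPKM (SD, n = 2), above the wildtype mean of 4.02 ± 0.192 FPKM (SD, n = 3).

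The log2 difference of Lrp5 was 0.23 (SE 0.119, 95% interval -0.05 to 0.51; unadjusted p-value 0.0902, adjusted p-value 0.463 by edgeR), so it did not pass. It kept its sign in all 14 alternatives, from 0.17 to 0.27, with adjusted p-values from 0.198 to 0.772, and was 0.2 without KO replicate 1. Lrp6 (chromosome 6, 134446476 to 134566913), its close homolog, had 2.92, 3.5 and 3.13 FPKM in KO and 4.25, 2.89 and 3.42 FPKM in wildtype, with overlapping groups. Its log2 difference was -0.15 (SE 0.163, 95% interval -0.53 to 0.23, adjusted p-value 0.782 by edgeR). It was -0.116 without KO replicate 1, -0.018 without wildtype replicate 1 and -0.251 without wildtype replicate 2. The ratio of Lrp5 to Lrp6 FPKM was 1.57, 1.3 and 1.57 in KO and 0.998, 1.35 and 1.15 in wildtype, which also overlapped.

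Ctnnb1 (chromosome 9, 120929216 to 120960507) encodes β-catenin, which serves in both Wnt signaling and cell adhesion. Its level was 57.7, 72.8 and 72 FPKM in KO and 86.3, 64.7 and 67.6 FPKM in wildtype. The lowest value was in the library labelled KO replicate 1 and the highest in wildtype replicate 1, and KO replicates 2 and 3 lay within the wildtype range. With 17535 to 29541 counts per library, counting error was small. For Ctnnb1 the log2 difference was -0.15 (SE 0.173, 95% interval -0.55 to 0.26, adjusted p-value 0.809 by edgeR). It shrank to -0.041 without KO replicate 1 and to -0.031 without wildtype replicate 1. A transcript level does not report the amount of stabilized protein.

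Axin2 (chromosome 11, 108920349 to 108950783), the feedback target often used as a readout of β-catenin activity, averaged under the 0.5 FPKM limit of the test. It was tested only because it is a member. It had 0.288, 0.45 and 0.341 FPKM in KO and 0.546, 0.355 and 0.317 FPKM in wildtype, from 94 to 201 counts. The groups overlapped, and wildtype replicate 1 was highest. The log2 difference was -0.23 (SE 0.342, 95% interval -1.04 to 0.57, adjusted p-value 0.856 by edgeR). That value was -0.078 without KO replicate 1 and 0.01 without wildtype replicate 1. The interval leaves room for a difference in either direction.

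**Figure D3:**
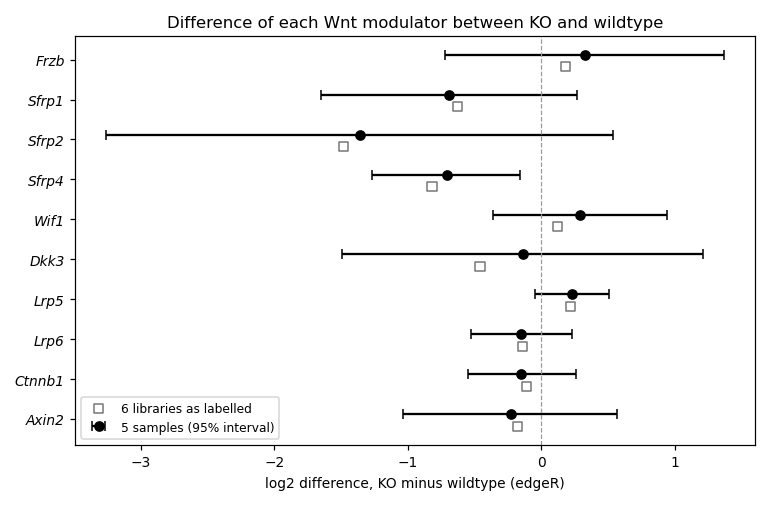
Log2 difference (KO minus wildtype) of each member by edgeR, with the 95% interval for the 5 samples (black) and the value with the 6 libraries as labelled (gray squares). The interval of Sfrp4 (-1.27 to -0.16) excludes 0 before adjustment and the other 9 include it.

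The genes whose levels over the 6 libraries were most like each member were then named, by the smallest root mean square difference of centered log2 CPM among 7610 genes of at least 5 FPKM. For Sfrp4 this was H2-Eb1, an MHC class II gene of antigen-presenting cells (0.079), which had 50.9 to 83.1 FPKM in KO and 94.3 to 124 FPKM in wildtype. For Wif1 it was Cpe, which encodes carboxypeptidase E (0.0988), and for Frzb the predicted gene Gm5805 (0.0997). Dkk3 was nearest to Mepe, a gene of osteocytes, with a larger difference (0.282). Mepe had 70.5, 23.4 and 24.3 FPKM in KO and 64.4, 29.4 and 33 FPKM in wildtype. The summed osteoblast and osteocyte list, which holds Mepe, was at 1.06-fold in KO replicate 1 relative to KO replicates 2 and 3. That sum also holds Col1a1, which had 105, 317 and 312 FPKM in KO, so it does not describe Mepe. Sfrp2 was nearest to Acta2, the smooth muscle actin (0.431), which reached 31.5 FPKM in wildtype replicate 3 and 3.69 to 4.64 FPKM elsewhere. The nearest genes of Lrp5, Lrp6, Ctnnb1, Axin2 and Sfrp1 were E4f1, Trim44, Sec63, Ubqln2 and Mertk, with differences from 0.0132 to 0.179.

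To place the members within the pathway, 90 other Wnt genes in 6 role lists were examined, of which 86 were in the table and 55 were tested. None passed the adjusted threshold by edgeR, either in the 5 samples or with the 6 libraries as labelled. At an unadjusted p-value under 0.05 there were 6 of 55 (10.9%, against 13.7% of all genes), 5 lower and 1 higher in KO. The median log2 difference was -0.12 (all genes -0.02), and 32 genes were lower and 23 higher, against 52.5% of all genes lower. Without KO replicate 1 the median was -0.335, and 9 of 55 had an unadjusted p-value under 0.05, against 20.7% of all genes. Without wildtype replicate 1 the median was 0.0193, 27 of 55 were lower and 0 of 55 had an unadjusted p-value under 0.05 by edgeR.

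Among the other secreted antagonists, 7 of 12 were tested, 4 higher and 3 lower in KO. Sost, the sclerostin gene of osteocytes, was highest in the library labelled KO replicate 1, at 73 FPKM, against 15.5 and 14.8 FPKM in KO replicates 2 and 3 and 24.6 to 39 FPKM in wildtype. Igfbp4, an IGF-binding protein that can also block Wnt receptors, had 51.4 to 56.2 FPKM in KO and 65.4 to 81.8 FPKM in wildtype (log2 difference -0.39, adjusted p-value 0.332 by edgeR). Its KO libraries lay under all wildtype libraries. Groups did not overlap for 26.7% of all genes in log2 CPM of the 6 libraries, and its small p-value was a reason for naming it. Notum, which inactivates Wnt ligands, had a log2 difference of -0.65 (adjusted p-value 0.669).

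Wnt ligands themselves were scarce. Of 21 genes for ligands and ligand secretion, 5 were tested, 2 higher and 3 lower. Wnt10b (0.521 to 4.37 FPKM) was the highest ligand by the mean over the 6 libraries, carried by KO replicate 1 (4.37) and wildtype replicate 1 (3.41), while Wnt4 and Wnt5b were higher in KO replicates 2 and 3 and wildtype replicate 2. Wls, the carrier that brings Wnt ligands to the cell surface, was at 7.46 to 9.77 FPKM in KO and 6.56 to 8.02 FPKM in wildtype (log2 difference 0.26, adjusted p-value 0.498 by edgeR). Porcn, the enzyme that acylates Wnt ligands, had a log2 difference of -0.38 (adjusted p-value 0.727).

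Of 23 receptor and R-spondin axis genes, 13 were tested, with a median log2 difference of -0.39. In KO 11 had lower and 2 higher values, against 52.5% of all genes lower. The receptor Fzd1, named for its small p-value, was at 1.22 to 1.72 FPKM in KO and 1.99 to 4.06 FPKM in wildtype (log2 difference -0.85, adjusted p-value 0.313 by edgeR). Its groups did not overlap in FPKM, against 26.7% of all genes in log2 CPM of the 6 libraries. Fzd5 was at 1.67 to 1.86 FPKM and 2.12 to 2.92 FPKM (-0.44, adjusted p-value 0.372). The most abundant genes of this list, Ryk and Fzd9, had log2 differences of -0.27 and 0.37 and groups that overlapped. Wildtype replicate 1 was the highest library for Fzd1, Fzd5 and Ryk, and KO replicate 1 for Fzd9.

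All 14 cytoplasmic relay genes were tested, with a median log2 difference of 0.04, 9 higher and 5 lower. Gsk3a, a kinase of the β-catenin destruction complex, was the most abundant at 37.9 to 40.6 FPKM in KO and 32.6 to 38.6 FPKM in wildtype (log2 difference 0.19). Csnk1a1, the kinase that primes β-catenin, had a log2 difference of -0.12, and Csnk1e of 0.18. Btrc, which directs phosphorylated β-catenin to degradation, had 1.84 to 2.29 FPKM in KO and 2.44 to 3.19 FPKM in wildtype (log2 difference -0.42, adjusted p-value 0.346 by edgeR).

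Nuclear factors had a median log2 difference of -0.01, with 10 of 12 tested, 5 higher and 5 lower. Lef1 averaged 0.495 FPKM, just under the 0.5 FPKM limit, and was not tested. It had 0.225, 0.217 and 0.215 FPKM in KO and 1.05, 0.517 and 0.744 FPKM in wildtype. Pygo1, also not tested, overlapped, at 0.273 to 0.463 FPKM in KO and 0.285 to 0.471 FPKM in wildtype. The corepressor Tle3 was at 6.66, 8.33 and 8.74 FPKM in KO and 5.79 to 6.4 FPKM in wildtype (log2 difference 0.33, adjusted p-value 0.321 by edgeR). Pygo2, a β-catenin coactivator, had a log2 difference of 0.09, and the factor Tcf7l2 of -0.59 (adjusted p-value 0.509).

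Of 8 target genes, 6 were tested, with a median log2 difference of -0.47. In KO 5 were lower and 1 higher, against 52.5% of all genes lower. Ccnd1, which encodes cyclin D1, had 3.73, 3.03 and 2.9 FPKM in KO and 7.42, 4.1 and 6.18 FPKM in wildtype (log2 difference -0.78, unadjusted p-value 0.0185, adjusted p-value 0.257 by edgeR). Tnfrsf19 had 5.55 to 5.95 FPKM in KO and 6.27 to 11.7 FPKM in wildtype (-0.58, adjusted p-value 0.363). Groups did not overlap in FPKM for either gene, and both were named for their small p-values. In log2 CPM of the 6 libraries, groups did not overlap for 26.7% of all genes. Ccn5 and Myc, the most abundant of the list, had log2 differences of -0.22 and 0.01. Ccnd1 and Myc also respond to many other signals.

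**Figure D4:**
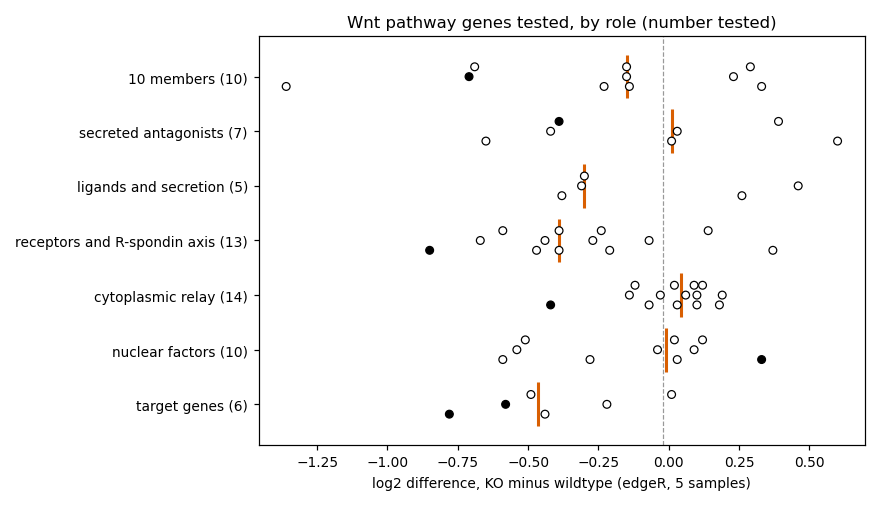
Log2 difference (KO minus wildtype, edgeR, 5 samples) of each tested gene by role, with filled points at an unadjusted p-value under 0.05, orange bars at list medians and the dashed line at the median of all genes (-0.02). Of the 13 receptor and R-spondin axis genes 11 lie under 0, against 52.5% of all genes, and no point passed the adjusted threshold.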

How the data were processed

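Expression was taken from 1 deposited table of 34709 genes with FPKM values and estimated counts for 6 libraries (3 KO, 3 wildtype), matched by column name, with groups and replicate numbers from the titles. The knocked-out gene is not reported here. Libraries were poly(A)-selected, strand-specific and sequenced as 150 bp pairs. The submitters' processing notes list cutadapt 1.9, HISAT2 2.0.4, UMI-tools and StringTie 1.3.4d, without roles. The authors computed FPKM within each library, with no scaling between libraries stated. The deposited estimated counts were whole numbers but piled up at 4 (6596 values, against 4170 at 3 and 2332 at 5), so a count was not taken as 1 read pair. They needed no rounding, except after averaging KO replicates 2 and 3. The build was not given in the sources used here; positions matched GENCODE M21 (GRCm38) for 87.03% of identifiers.

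edgeR 4.0.16 (R 4.3.3, TMM scaling, quasi-likelihood test) was run on genes of at least 0.5 mean FPKM, plus 3 members (Sfrp1, Sfrp2, Axin2) under that limit. SEs came from the log2 difference and F statistic. A count of 0 would allow up to 3 counts, 0.0474 to 0.0574 CPM, for counting error only; the number of samples set the precision. The study's methods call its samples independent in general, without tying libraries to animals, so p-values measure only the spread between these samples. With 2 against 3 samples an exact permutation test cannot go below 0.1, so none was run. The script was tested on simulated data. Members, lists and tests were chosen with earlier results of these data known. Genes named beyond the members were the 2 most abundant and the 2 with the smallest p-values of each role list, and the most alike gene of each member. Acan, Col2a1, Matn1, Cytl1, Col11a1, Dcn, Pi16, Dmp1, Col1a1, Wnt4, Wnt5b, Lef1 and Pygo1 were named after their values were seen. Alternatives were limma 3.58.1, DESeq2 1.42.0, other scaling and filters, a replicate block, and libraries left out.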

Additional observations from a re-analysis of the deposited data

How the results depend on the processing

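No member passed the adjusted threshold in any of the 15 alternatives, and 138 of 144 member values kept the sign of the main value. Signs changed for Frzb without KO replicate 1 (-0.152) and without wildtype replicate 1 (-0.001), for Wif1 without KO replicate 1 (-0.282), for Dkk3 without wildtype replicate 1 (0.251) and without KO replicates 2 and 3 (0.545), and for Axin2 without wildtype replicate 1 (0.013). With 1 library left out, the log2 difference of Frzb lay between -0.152 and 0.725, that of Wif1 between -0.282 and 0.357, that of Dkk3 between -1.428 (without KO replicate 1) and 0.251, and that of Axin2 between -0.37 and 0.013. The setting without KO replicates 2 and 3 was added after seeing the data. Genes called among all genes numbered 0 in the 5 samples, 569 with the 6 libraries as labelled, 887 with DESeq2, 21 with no filter, 9 without KO replicates 2 and 3, and from 0 (each of KO replicates 2 and 3 and wildtype replicate 1) to 352 (without KO replicate 1) with 1 library left out. In those fits the median log2 difference of the Wnt lists lay between -0.335 (KO replicate 1 left out) and 0.0193 (wildtype replicate 1 left out), against -0.118. The cause of these differences was not tested. With the replicate block on the 6 libraries, 0 genes passed (2810 at an unadjusted p-value under 0.05), no member's call changed, and Sfrp4 was at -0.845. Same-numbered libraries did not deviate together, with correlations of -0.145, -0.108 and -0.058 across genes, so the numbers were not taken as pairs. Where an arm kept 1 sample, it was assumed to vary like the other group. With a minimum of 5 FPKM, 4 members could be tested.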
